A study of Mus musculus with 8 samples.

Results

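The Notch genes described here are 10 rows of a tumor expression table of 27179 mouse genes, taken by their symbols: the receptors Notch1, Notch2, Notch3 and Notch4, the ligands Jag1, Jag2, Dll1 and Dll4, and the target genes Hes1 and Hey1. All 10 were expressed above 1 CPM (counts scaled to library size) in at least 4 tumors and entered the tests, which covered 13262 genes. RNA was sequenced from 8 subcutaneous tumors grown in CD2F1 male mice aged 13 to 18 weeks. In 4 tumors the implanted cells were cxC26 scr, a cachectic line of C26 mouse colon carcinoma cells that carried a scrambled CRISPR guide, and in 4 they were cxC26 IL6KOs1, subclone 1 of the same line after CRISPR knockout of Il6. Per the labels, mice of both groups were kept until they were cachectic. The study as a whole killed mice once over 15% of body weight was lost, and the collection day for these tumors is not given in the sources used here. The comparison asks how expression in the tumor differs when the cancer cells cannot make interleukin 6. The knockout group is 1 subclone. In the study's CD2F1 mice followed to cachexia, this subclone was injected at higher cell numbers and its tumors were collected later than the cxC26 scr tumors. Clone, editing and age of the tumor therefore cannot be told apart. Whole tumors were used, so cancer cells and the blood vessels, fibroblasts and immune cells of the host were measured together, and fewer cells of a type cannot be told apart from less RNA per cell.

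Notch receptors are single-pass membrane proteins that are switched on by ligands of the Jagged and Delta-like families on a neighbouring cell. Binding exposes the receptor to ADAM proteases and then to gamma-secretase, which frees the intracellular domain. This domain enters the nucleus, joins the DNA-binding protein RBPJ and Mastermind co-activators, and switches on genes of the Hes and Hey families of transcriptional repressors. In solid tumors the pathway acts in cancer cells, and in vessels, where Notch4 and Dll4 are typical of endothelium and Notch3 of mural cells such as pericytes.

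The tumors held 14158989 to 17048062 reads assigned to genes. Il6 itself counted 356, 326, 376 and 438 reads in control tumors against 64, 56, 86 and 59 in knockout tumors, a difference of -2.45 on the log2 scale (SE 0.165, limma adjusted p = 1.76e-06). The groups differed widely: 5277 of the 13262 genes tested, or 39.8%, were called at an adjusted p under 0.05 by limma, 19.1% higher and 20.7% lower in cxC26 IL6KOs1 tumors, and in 37.1% the values of the groups did not overlap. Of the 10 Notch genes, 7 were called. Notch2 and Notch4 rose, Notch1, Jag1, Dll1, Hes1 and Hey1 fell, and Notch3, Jag2 and Dll4 were not called. In 5 of the 10 (Notch1, Notch2, Jag1, Dll1 and Hes1) the groups did not overlap. The called genes Notch4 and Hey1 did not pass 0.05 by a two-sided exact permutation test of the tumors (p = 0.0571 and p = 0.0857). A call combined with a change of at least 2-fold was seen in 10.2% of all genes tested and in 3 of the 10, Dll1, Hes1 and Notch1. With 10 genes, these counts describe the members and were not tested against the background.

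**Figure D1:**
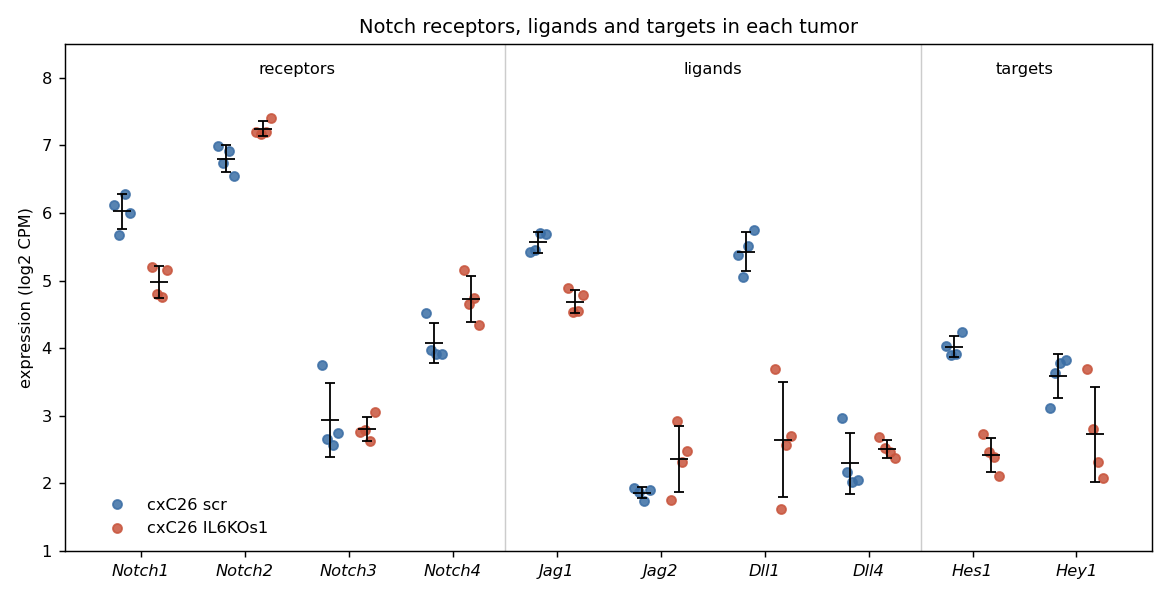
Expression of the 10 Notch genes in log2 CPM in each of 4 cxC26 scr (blue) and 4 cxC26 IL6KOs1 (red) tumors, with the mean and SD of each group in black. The lowest cxC26 scr tumor lies above the highest cxC26 IL6KOs1 tumor for Notch1, Jag1, Dll1 and Hes1, the order is the opposite for Notch2, and the groups overlap for the other 5 genes.

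Among the receptors, Notch1 and Notch2 moved in opposite directions. Notch1, widely expressed and required in T cell development and vessels, lies on chromosome 2 (GRCm38, 26457902 to 26503822, minus strand). Controls counted 1163, 824, 1110 and 989 reads of it, or 6.12, 5.67, 6.29 and 6.01 log2 CPM, and knockout tumors 599, 385, 427 and 514 reads, or 5.21, 4.80, 4.76 and 5.15 log2 CPM. All 4 knockout tumors were below all 4 controls. The level was 48.5% of that in cxC26 scr tumors, a log2 difference of -1.04 (SE 0.146, n = 4 against 4, limma adjusted p = 0.000257). Annotated genes that overlap Notch1 are 0610009E02Rik, Gm13568 and Mir6996, and the library kit does not mark strand, so reads from overlaps with them cannot be assigned.

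Notch2, a close relative of Notch1 with roles in bile ducts, marginal zone B cells and myeloid cells, was the most abundant of the 4 receptors. It had 2130, 1736, 1723 and 1443 reads in cxC26 scr tumors (7.00, 6.75, 6.92 and 6.55 log2 CPM) and 2394, 1984, 2324 and 2465 reads in cxC26 IL6KOs1 tumors (7.20, 7.16, 7.20 and 7.41 log2 CPM). The 4 knockout tumors were all above the controls, although the gap from 7.00 to 7.16 was narrow. The log2 difference was 0.44 (SE 0.105, limma adjusted p = 0.00628), a level of 136% of the control. The gene lies on chromosome 3 (98013538 to 98150367), where the median log2 difference of the 114 tested genes in its 10 Mb window was 0.23. With this regional median taken off, the difference of Notch2 was 0.21 and was no longer called (limma adjusted p = 0.149).

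Notch4, the endothelial receptor, had 384, 254, 213 and 231 reads in cxC26 scr tumors (4.53, 3.97, 3.91 and 3.91 log2 CPM) and 581, 348, 421 and 294 reads in cxC26 IL6KOs1 tumors (5.16, 4.65, 4.74 and 4.35 log2 CPM). In the knockout group 3 of 4 tumors were above every control, and the remaining one was below control tumor 1. The level rose to 156% of the control, a log2 difference of 0.65 (SE 0.186, limma adjusted p = 0.0166). By a two-sided exact permutation test of the tumors the difference did not pass 0.05 (p = 0.0571). The call is close to the threshold, with adjusted p = 0.0506 by limma without cxC26 scr tumor 3 and adjusted p = 0.0507 by limma without cxC26 scr tumor 4.

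Notch3, a receptor of pericytes and arterial smooth muscle, was low, with 224, 102, 84 and 103 reads in cxC26 scr tumors and 110, 95, 97 and 120 reads in cxC26 IL6KOs1 tumors. Control tumor 1 stood apart at 3.75 log2 CPM, beside 2.57 to 2.75 in the other 3 controls and 2.63 to 3.06 in the knockout tumors. The log2 difference was -0.12 (95% confidence interval -0.66 to 0.41, limma adjusted p = 0.715). Without control tumor 1 its sign turned, to 0.15, and it was again not called.

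The ligands as a group were less abundant in the knockout tumors, and the fall came from Dll1 and Jag1. Dll1, a Delta-like ligand best known from somite formation and from neural and intestinal progenitors, changed more than any other of the 10 genes. Its reads were 695, 537, 650 and 829 in cxC26 scr tumors (5.38, 5.05, 5.51 and 5.75 log2 CPM) and 209, 42, 93 and 94 in cxC26 IL6KOs1 tumors (3.69, 1.62, 2.57 and 2.71 log2 CPM). The groups were more than 1 log2 unit apart, and within the knockout group tumor 1 was the highest and tumor 2 the lowest. The level fell to 14.6% of the control, a log2 difference of -2.78 (SE 0.336, limma adjusted p = 0.000101). The median difference of the genes in its 10 Mb window on chromosome 17 was -0.06. A930024N18Rik overlaps the Dll1 gene (15367354 to 15376932, minus strand), and its reads cannot be separated from those of Dll1 without strand.

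Jag1, a Jagged ligand with roles in arteries, bile ducts and many carcinomas, had 713, 708, 742 and 796 reads in cxC26 scr tumors (5.42, 5.45, 5.71 and 5.69 log2 CPM) and 480, 321, 368 and 399 reads in cxC26 IL6KOs1 tumors (4.89, 4.54, 4.55 and 4.79 log2 CPM). The groups did not overlap, and both were tight. The log2 difference was -0.88 (SE 0.115, limma adjusted p = 0.00017), a level of 54.4% of the control. The surrounding 10 Mb on chromosome 2 had a median of -0.22, and with it taken off the difference of Jag1 was -0.66 (limma adjusted p = 0.00128).

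The Jagged and Delta-like genes that were not called also had the fewest reads of the 10. Jag2, the second Jagged ligand, had 63, 59, 47 and 57 reads in cxC26 scr tumors and 54, 105, 78 and 80 reads in cxC26 IL6KOs1 tumors. Of the knockout tumors, 3 were above every control (2.32 to 2.93 against 1.74 to 1.93 log2 CPM) and tumor 1, at 1.75, lay among the controls. The log2 difference was 0.50 (95% confidence interval -0.01 to 1.02, limma adjusted p = 0.113). Without knockout tumor 1 it was 0.71 and was called (limma adjusted p = 0.0161), so this 1 tumor decides the call.

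Dll4, the ligand of sprouting and arterial endothelium, had 130, 72, 57 and 63 reads in cxC26 scr tumors and 104, 79, 86 and 75 reads in cxC26 IL6KOs1 tumors. Control tumor 1 was the highest of the 8, at 2.97 log2 CPM, and the knockout tumors at 2.38 to 2.69 lay above the other 3 controls at 2.01 to 2.16. The log2 difference was 0.21 (95% confidence interval -0.27 to 0.70, limma adjusted p = 0.474), and without control tumor 1 it was 0.44 (limma adjusted p = 0.0649).

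Both target genes were lower in the knockout tumors, Hes1 firmly and Hey1 with 1 exception. Hes1, a repressor that keeps progenitor cells from differentiating and that Notch and other pathways can induce, lies on chromosome 16 (30065357 to 30067796). It had 272, 242, 213 and 289 reads in cxC26 scr tumors (4.03, 3.91, 3.91 and 4.23 log2 CPM) and 107, 76, 82 and 62 reads in cxC26 IL6KOs1 tumors (2.73, 2.47, 2.39 and 2.11 log2 CPM). The groups were separated by more than 1 log2 unit. The level fell to 33.1% of the control, a log2 difference of -1.60 (SE 0.161, limma adjusted p = 2.8e-05), while the median of its 10 Mb window was 0.16.

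Hey1, a related repressor of vessels and heart, had 144, 200, 195 and 217 reads in cxC26 scr tumors (3.11, 3.63, 3.78 and 3.82 log2 CPM) and 209, 96, 78 and 61 reads in cxC26 IL6KOs1 tumors (3.69, 2.80, 2.32 and 2.09 log2 CPM). In 3 of the 4 knockout tumors it was below every control, whereas tumor 1 lay inside the control range. The log2 difference of -0.86 (SE 0.305) just passed the threshold (limma adjusted p = 0.0414). By a two-sided exact permutation test of the tumors it did not pass 0.05 (p = 0.0857). Leaving out any one tumor other than control tumor 1 or knockout tumor 1 took it past 0.05, whereas without knockout tumor 1 the log2 difference was -1.19 (limma adjusted p = 0.00133). Knockout tumor 1 was also the highest of its group for Notch1, Notch4, Jag1, Dll1, Dll4 and Hes1 and the lowest for Jag2.

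**Figure D2:**
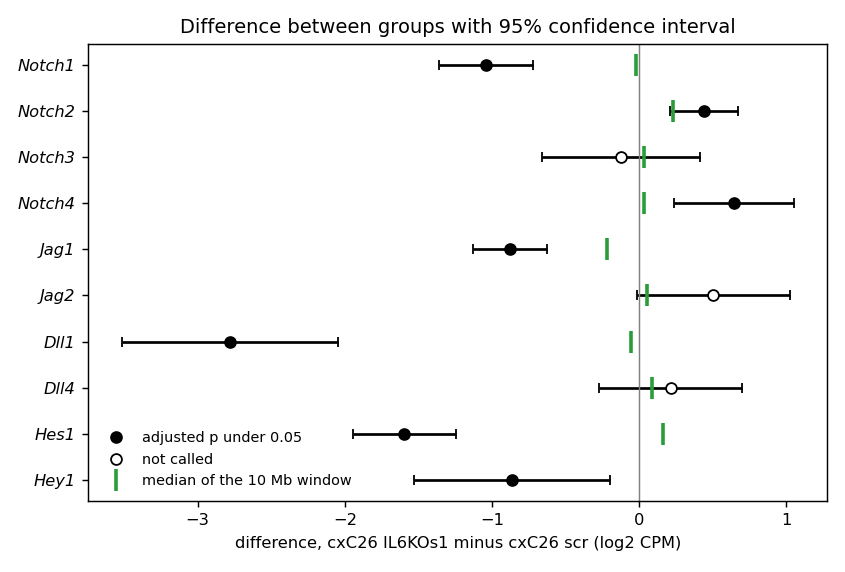
Log2 difference between the mean of 4 cxC26 IL6KOs1 and 4 cxC26 scr tumors for each Notch gene, with its 95% confidence interval from limma. Filled points have an adjusted p under 0.05, and green ticks mark the median difference of the tested genes in the gene's 10 Mb window where it held at least 25 of them. Dll1, Hes1, Notch1 and Jag1 lie well to the left of their windows, and the interval of Notch2 reaches its window's median of 0.23.

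The stretches just before the starts of the 3 receptor and ligand genes that fell are shown because they fell together. Each is the 250 bases upstream of the start in RefSeq (GRCm38.p6), written 5′ to 3′ on the gene's strand, with capitals marking GC boxes (GGGCGG or its reverse complement), the site of SP1-family factors.
Notch1, chr2:26503823-26504072, minus strand: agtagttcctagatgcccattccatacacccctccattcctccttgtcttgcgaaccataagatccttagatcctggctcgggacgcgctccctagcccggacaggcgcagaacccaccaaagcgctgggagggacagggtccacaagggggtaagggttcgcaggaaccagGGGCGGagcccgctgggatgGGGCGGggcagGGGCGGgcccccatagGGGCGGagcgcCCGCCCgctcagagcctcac
Jag1, chr2:137116521-137116770, minus strand: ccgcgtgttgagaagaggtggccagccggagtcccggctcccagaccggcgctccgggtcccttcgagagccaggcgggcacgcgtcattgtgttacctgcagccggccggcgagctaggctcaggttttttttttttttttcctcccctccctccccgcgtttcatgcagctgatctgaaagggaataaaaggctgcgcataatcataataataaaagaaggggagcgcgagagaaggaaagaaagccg
Dll1, chr17:15376933-15377182, minus strand: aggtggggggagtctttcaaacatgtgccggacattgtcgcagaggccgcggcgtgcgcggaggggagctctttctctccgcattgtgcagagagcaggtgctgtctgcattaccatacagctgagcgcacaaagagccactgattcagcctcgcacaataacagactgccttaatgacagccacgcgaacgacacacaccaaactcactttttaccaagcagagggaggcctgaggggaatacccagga
The Notch1 sequence held 5 GC boxes and those of Jag1 and Dll1 held none. Windows from 250 bases before to 50 bases after the start were found for 8 of the 10 genes, Notch1, Notch2, Notch3, Notch4, Jag1, Jag2, Dll1 with 2 starts and Dll4, and searched on both strands. A GC box was present in those of Notch1, Notch2, Notch3, Jag2 and Dll4, and in 35.7% of 32851 mouse promoter windows of the same length. The core letters bound by RBPJ, TGGGAA, occurred in 25.6% of all windows and in none of these, and the longer GTGGGAA, which contains it, was in 6.38%. The STAT-type palindrome TTCNNNGAA, the kind of site used by the transcription factor STAT3 downstream of interleukin 6, occurred in 8.3% of all windows and once among these, in Notch3 just after the start. Such letter matches describe the window and say nothing about binding.

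Compared per length of exon, the 4 receptors shifted in make-up more than in amount. Notch1 gave 25.5% ± 3.42 (SD, n = 4) of the receptor CPM per kb in cxC26 scr tumors and 10.8% ± 1.09 in cxC26 IL6KOs1 tumors. Notch2 gave 57.5% ± 2.91 and 68.6% ± 3.72, Notch4 gave 11.7% ± 1.57 and 16.3% ± 3.72, and Notch3 gave 5.40% ± 1.72 and 4.22% ± 0.406. The sum of the 4 was 18.2 ± 2.56 CPM per kb in cxC26 scr and 20.5 ± 1.32 CPM per kb in cxC26 IL6KOs1 tumors, with overlapping values. Within each tumor the log2 ratio of Notch1 to Notch2 CPM lay between -1.075 and -0.545 in the controls and between -2.443 and -1.998 in the knockout tumors. Its difference of -1.49 passed a two-sided exact permutation test (p = 0.0286, the smallest that 4 against 4 allows, adjusted p = 0.0358 over 5 such ratios).

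For the ligands both the amount and the make-up changed. Their sum was 20.3 ± 2.61 CPM per kb in cxC26 scr tumors, between 17.0 and 23.2, and 8.36 ± 1.35 CPM per kb in cxC26 IL6KOs1 tumors, between 7.26 and 10.3. Dll1 was the largest contributor in the controls, at 50.5% ± 3.62, and gave 19.1% ± 8.13 in the knockout tumors. Jag1 gave 40.3% ± 3.25 and 53.4% ± 2.93, Dll4 gave 6.62% ± 2.60 and 17.8% ± 2.12, and Jag2 gave 2.58% ± 0.398 and 9.63% ± 4.22. The shares of Jag2 and Dll4 were higher in the knockout tumors, where the sum they are part of was smaller and neither gene was called.

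**Figure D3:**
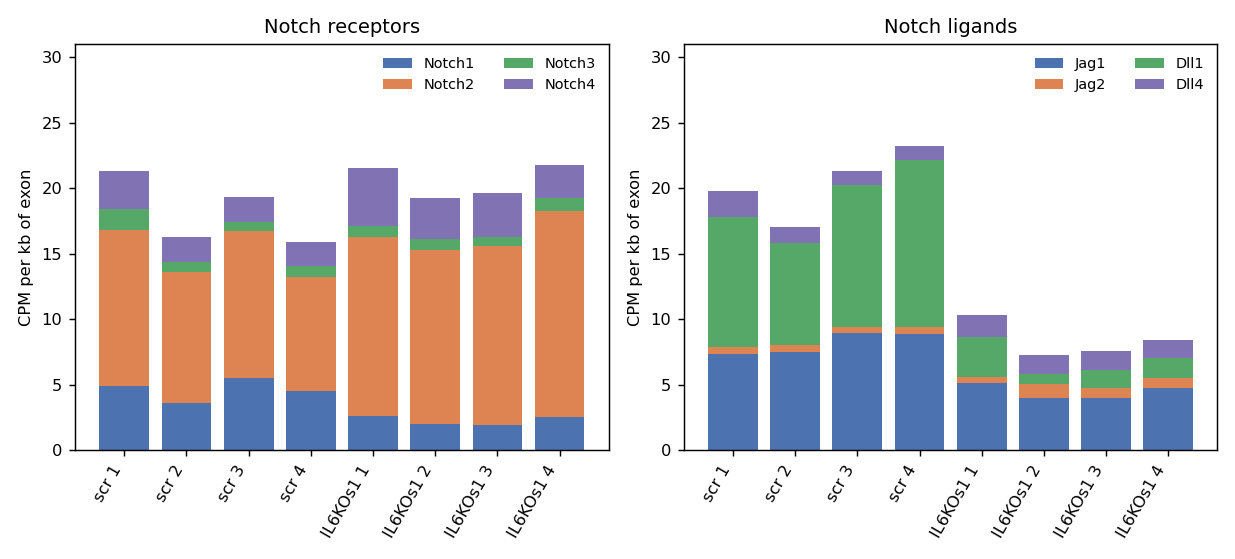
CPM per kb of exon of the 4 Notch receptors (left) and the 4 ligands (right), stacked, in each of 4 cxC26 scr and 4 cxC26 IL6KOs1 tumors. The receptor bars have similar heights in both groups with less Notch1 in the knockout tumors, and the ligand bars of the knockout tumors, at 7.26 to 10.3, are all shorter than those of the controls, at 17.0 to 23.2.

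Ratios within a tumor, which do not depend on library size, separated the groups for 4 of the 5 pairs examined. Each of these 4 pairs holds a gene whose own groups did not overlap (Notch1, Jag1, Dll1 or Hes1), as was the case for 37.1% of all genes tested. The ratios are therefore not separate evidence from the differences of these genes. The share of all gene pairs whose ratio separates the groups was not computed. The log2 ratio of Dll1 to Dll4 was between 2.41 and 3.71 in cxC26 scr and between -0.90 and 1.00 in cxC26 IL6KOs1 tumors, a difference of -2.99 (exact permutation p = 0.0286, adjusted p = 0.0358). That of Jag1 to Jag2 fell by 1.38 and that of Hes1 to Hey1 by 0.73, each with the same exact p and adjusted p. The ratio of Notch3 to Notch4 differed by -0.77 and its groups overlapped (exact permutation p = 0.0857, adjusted p = 0.0857).

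In order of level per kb of exon, the control tumors had Notch2, Dll1, Jag1 and Hes1 at the top, with mean log2 CPM per kb of 3.37, 3.35, 3.02 and 2.99. Each of these 4 overlapped its neighbour in the order across tumors. Notch1 (2.19), Hey1 (1.88), Notch4 (1.07), Dll4 (0.35) and Notch3 (-0.08) followed, each overlapping the next, and Jag2 (-0.94) was below them all. In the knockout tumors Notch2 (3.81) stood alone at the top. Jag1 (2.15), Notch4 (1.71), Hes1 (1.40), Notch1 (1.15), Hey1 (1.02), Dll1 (0.57) and Dll4 (0.57) formed a run in which each overlapped the next, and Notch3 (-0.21) and Jag2 (-0.43) came last. In the order of means Dll1 thus went from the 2nd to the 7th place of the 10, where its rounded mean equalled that of Dll4. Its values in the knockout tumors, from -0.46 to 1.61, took in the whole ranges of Notch1 and Dll4, so its exact place there is not resolved.

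Because Notch4, Dll4 and Notch3 are typical of vessels, they were set beside vascular markers. Of all genes tested, 39.8% were called. Of 12 endothelial markers 1 fell, Vwf, and 11 were not called, among them Pecam1 (log2 difference 0.05) and Cdh5 (-0.10), the most abundant of them. Their summed level was 258, 179, 156 and 165 CPM in cxC26 scr and 171, 189, 217 and 189 CPM in cxC26 IL6KOs1 tumors, so the groups overlapped. Of 8 mural cell markers Pdgfrb fell and 7 were not called, Cspg4 the more abundant among those at 0.37. Their sum was 227 to 297 CPM in cxC26 scr and 202 to 272 CPM in cxC26 IL6KOs1 tumors. Control tumor 1, the highest control for Notch3, Notch4 and Dll4, also had the highest endothelial and mural sums of the 8 tumors.

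Per unit of the endothelial sum, Notch4 was -3.49, -3.51, -3.38 and -3.45 on the log2 scale in the controls and -2.26, -2.91, -3.02 and -3.22 in the knockout tumors. Expressed this way its groups no longer overlapped, with a difference in means of 0.61, given as a description with no test. On the same scale Dll4 differed by 0.17, at -5.32 to -5.05 in the controls and -5.31 to -4.73 in the knockout tumors. Notch3 per unit of the mural sum differed by 0.03, with overlapping groups. That sum leans on Pdgfrb (log2 difference -0.77), which had the highest mean of the 8 mural markers in both groups. Whether Notch3 followed mural cells was not tested. Arterial markers, of which 4 of 5 were tested, held 1 that rose, Efnb2 (log2 difference 0.74), while Sox17 was at -0.31 and not called.

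**Figure D4:**
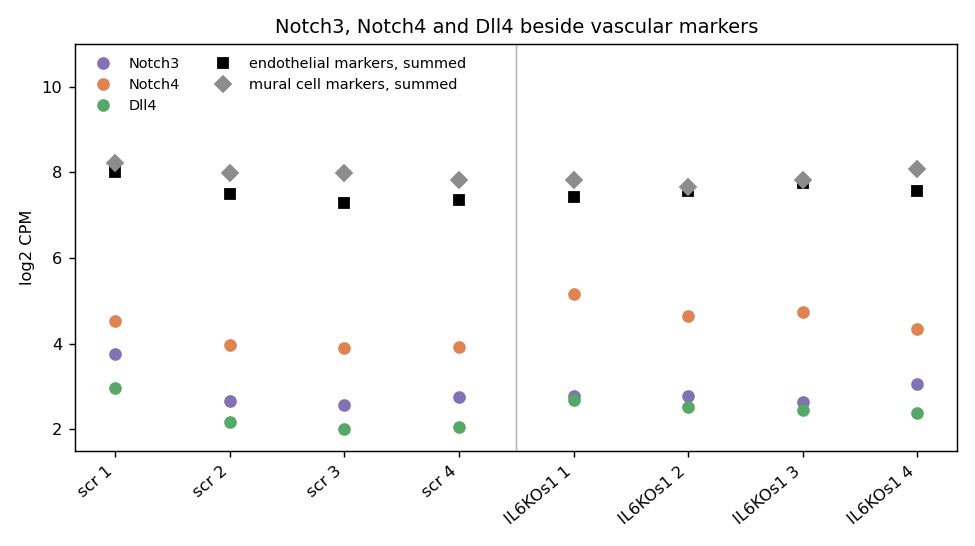
Log2 CPM of Notch3, Notch4 and Dll4 in each tumor, with the summed level of 12 endothelial and 8 mural cell markers on the same scale. Control tumor 1 is the highest control for all 3 genes and for both marker sums, and Notch4 in cxC26 IL6KOs1 tumors, at 4.35 to 5.16, is high while the endothelial sum of the groups overlaps.

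Many markers of other cells differed between the groups, where 39.8% of all genes tested were called, and their part in the Notch differences was not tested. All 6 macrophage markers rose, among them C1qa by 1.02 and Mrc1 by 0.52 on the log2 scale and Adgre1 by 2.82-fold, with a summed level of 415 to 586 CPM in cxC26 scr and 823 to 1270 CPM in cxC26 IL6KOs1 tumors. Of 6 T cell markers the 4 tested were called higher, Cd4 by 1.25, Trac by 2.76, Cd3g by 4.62 and Cd8a by 5.23 (log2). Trac, Cd3g and Cd8a reached 1 CPM only in cxC26 IL6KOs1 tumors, so the filter fixed their direction. In cxC26 scr tumors Trac had 3, 10, 1 and 2 reads, Cd3g 0, 5, 1 and 1, and Cd8a 0, 3, 1 and 1. The sizes of these 3 differences are therefore uncertain. The sums over the 6 were 0.843 to 3.03 CPM in cxC26 scr and 8.81 to 16.8 CPM in cxC26 IL6KOs1 tumors. The 6 fibroblast markers were mixed, with Lum higher, Pdgfra and Col3a1 lower and Col1a2 at 0.14 and not called, and sums of 7660 to 10200 CPM and 5480 to 8610 CPM. Of 5 B cell markers 1 was tested, Cd79a, and was not called, with sums over the 5 of 1.02 to 2.18 CPM and 2.02 to 8.62 CPM. Cd79b, below the filter and named after its values were seen, had 7, 9, 6 and 6 reads against 62, 10, 40 and 33. Of 7 epithelial carcinoma markers 3 were tested, of which Krt18 and Cdh1 rose and Cdx2 was called lower. Cdx2 reached 1 CPM only in cxC26 scr tumors (32, 24, 34 and 17 reads against 1, 0, 0 and 0), so the filter fixed its direction. Epcam, Krt8, Krt19 and Vil1 had only 36, 65, 2 and 10 reads over all 8 tumors. The labelled tissue, tumor of colon carcinoma cells, thus carried little of the defining epithelial RNA in either group, 4.09 to 6.30 CPM and 14.2 to 26.5 CPM in sum.

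Around the 10 genes, 68 other genes of the pathway were examined in lists by role. Of these 61 were tested, 12 rose and 16 fell, which is 45.9% called beside 39.8% of all genes tested, with a median log2 difference of -0.12 beside -0.0029 for all genes. In 5 the change was called and at least 2-fold. On the ligand side, 1 of 2 tested other ligands was called lower, the Delta-like Dlk2 (-1.25, limma adjusted p = 0.013). Dlk2 reached 1 CPM only in cxC26 scr tumors (35, 39, 20 and 23 reads against 7, 13, 13 and 13). The filter thus fixed its direction, and it is among the 16 and the 5 counted above. Of 4 ubiquitin ligases that drive ligand endocytosis Neurl1a rose (1.12, limma adjusted p = 0.000715) and 3 were not called.

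Genes that modify and cut the receptor changed in both directions. Of 6 glycosylation genes Lfng, the Fringe enzyme that biases receptors toward Delta-like ligands, rose (1.04, limma adjusted p = 0.000236). Pofut1, the O-fucosyltransferase that Fringe enzymes build on, fell (-0.71), as did Rfng (-0.35). Of 10 cleavage genes 4 rose and 2 fell. Among all genes tested 39.8% were called, and the counts of these lists were not tested against that share. Furin, which cuts the receptor during its export, fell by 0.86 on the log2 scale (limma adjusted p = 0.000291), and Adam10, the protease of the ligand-triggered cut, rose by 0.51 (limma adjusted p = 0.0014).

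The counts per list here stand beside 20.7% lower and 19.1% higher among all genes tested, and were not tested against these shares. In the nuclear activation complex 5 of 9 genes fell and 1 rose. The acetyltransferases Ep300 (-0.33) and Kat2a (-0.28) were among those that fell. The Mastermind genes, named after their values were seen, changed more and in both directions. Maml1 (-0.76, limma adjusted p = 0.000346) and Maml3 (-0.81, limma adjusted p = 0.000868) fell, and Maml2 rose (0.74, limma adjusted p = 0.00255). Rbpj, named here outside the rule because the complex is built on it, had means of 6.91 and 6.96 log2 CPM (limma adjusted p = 0.641). Of 13 co-repressor genes 2 rose and 3 fell, with Tle1 at 1.04 (limma adjusted p = 2.6e-05) and Ncor1 at -0.25. Of 10 tested genes of receptor turnover and inhibition 3 rose and 2 fell. Dtx3l, a Deltex-family ubiquitin ligase, rose by 1.21 (limma adjusted p = 0.000868) and Sel1l by 0.40, while the ubiquitin ligase Itch fell by 0.37 on the log2 scale.

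Of 13 other target genes listed, 8 were tested and 1 was called, beside 39.8% of all genes tested. It was the cell cycle inhibitor Cdkn1a (-0.52, limma adjusted p = 0.00665), which many other signals also control. Sox9 (-0.66, SE 0.332) and Gata3 (-0.41, SE 0.247), named after their values were seen, were lower in the mean and not called. Heyl (0.31, SE 0.342), Myc (0.07, SE 0.101), Ccnd1 (-0.06, SE 0.116) and Il2ra (-0.06, SE 0.461), named likewise, were not called. No difference of these genes from Hes1 was tested. Nrarp, a feedback inhibitor and direct target named here after its values were seen, differed by 0.09 (SE 0.146, limma adjusted p = 0.656). Hes5, Hes7, Hey2, Dtx1 and Ptcra had at most 45 reads over the 8 tumors and were too low to test.

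**Figure D5:**
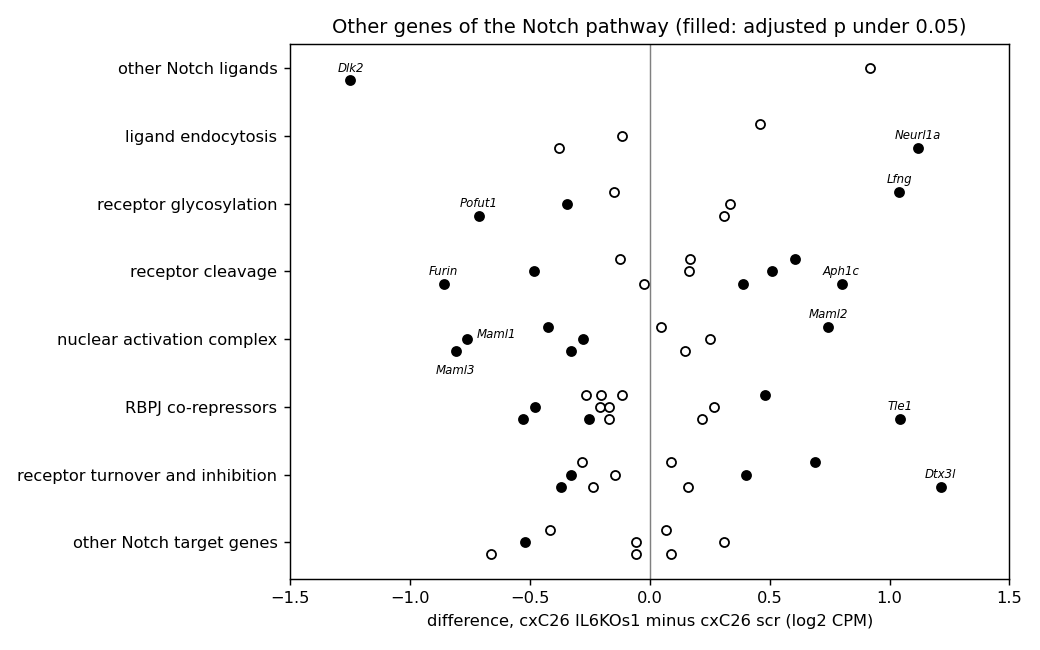
Log2 difference between cxC26 IL6KOs1 and cxC26 scr tumors for the 61 other genes of the Notch pathway that were tested, one row for each role (Nrarp stands in the last 2 rows), with filled points for an adjusted p under 0.05 from limma. Each of the rows for glycosylation, cleavage, activation, co-repressors and turnover has filled points on both sides of 0, and the row of other target genes has 1, Cdkn1a at -0.52.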

How the data were processed

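RNA of 8 tumors, 4 in each group, was sequenced in libraries made with a kit that does not mark strand. Per the labels and the study's methods, the authors aligned reads to mm10 with HISAT2 and deposited log2 CPM from limma-voom; the gene annotation and strand setting are not given in the sources used here. Whole reads were recovered by inverting voom's offset of 0.5 reads (tolerance 0.05). Groups came from sample titles. Genes reaching 1 CPM in 4 or more tumors (13262) were kept, and their deposited log2 values fitted with limma 3.58.1 in R 4.3.3 (trend, no covariates) and p-values adjusted by Benjamini-Hochberg at 0.05. Ratios, and the level of each Notch gene beside limma, were tested by exact permutation (two-sided, 70 splits of the tumors) (scipy 1.17.1). Lengths are unions of GENCODE M21 exons. The Notch genes, lists and tests were chosen with earlier results of these data known. All 10 Notch genes were described; of each other list, called genes changed at least 2-fold and the 2 called genes of highest mean were named, and of marker lists the 2 genes of highest mean and those called. One gene that this rule names is not reported here. Tumors were not stated to be separate experiments, so p-values measure the spread between tumors of a group. The fit was tested on simulated data. Alternatives varied filter, scaling, weights, pseudocount, regional medians, replicate block, fold and each tumor left out.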

Additional observations from a re-analysis of the deposited data

Results flagged for a closer look

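In 4 of 46 groups of 4 tumors examined, 1 tumor lay far from the rest by Dixon's criterion, where chance gives about 2.3. Notch2 in cxC26 IL6KOs1 tumor 4 was 7.41 log2 CPM, beside 7.16 to 7.20 in the other 3. Notch3 in cxC26 scr tumor 1 was 3.75 log2 CPM, Notch4 in the same tumor was 4.53 log2 CPM and Dll4 was 2.97 log2 CPM, beside 2.57 to 2.75, 3.91 to 3.97 and 2.01 to 2.16 log2 CPM in the other 3 cxC26 scr tumors. These last 3 values come from 1 tumor, which also had the highest endothelial and mural marker sums, 258 and 297 CPM, and the part of these cells in the values was not tested.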

How the results depend on the processing

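Of 167 values of the 10 Notch differences under other settings, 151 kept their direction and their side of the threshold. Dll1, Hes1, Notch1 and Jag1 stayed called and lower in every setting run at an adjusted p under 0.05, and Jag1, at 1.84-fold, dropped out with the 2-fold threshold. The number of Notch genes that rose, 2 as reported, was 1 with no filter on low expression (Notch2), 1 with regional medians removed (Notch4) and 0 with a 2-fold threshold in limma (also 0 at an unadjusted p under 0.05 with that fold), and lay between 1 and 3 when each tumor was left out, with 1 without cxC26 scr tumor 3 or 4 and 3 without cxC26 IL6KOs1 tumor 1. The number that fell, 5 as reported, was 3 with a 2-fold threshold and 4 to 5 with 1 tumor left out. With voom weights on the recovered reads, 100% of which came out whole, 5233 of all genes were called. Calls over all genes fell from 5277 to 1350 with the 2-fold threshold, 829 higher and 521 lower. Notch3 lay between -0.25 and 0.15 with 1 tumor left out and changed sign only without cxC26 scr tumor 1. Hey1 lost its call in 10 of 17 settings. With 3 against 4 tumors no exact permutation test can pass 0.05, and all 5 ratios kept their direction. Tumors with the same number did not visibly deviate together (correlations of -0.059, 0.057, 0.017 and -0.059). Correlations between tumors of different numbers lay between -0.082 and 0.062. No pairing by number was seen, but with 4 tumors in each group these correlations cannot exclude one. With the replicate block 5165 genes were called, and of the Notch genes 2 rose and 4 fell, Hey1 losing its call at a limma adjusted p of 0.0748. The causes of these changes were not tested. The fewest reads over the 8 tumors were those of Jag2 and Dll4, 543 and 666.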
